A study of Bos taurus and Sus scrofa with 6 samples.

Results

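Dividing stromal and myoid cells of the prepubertal cattle testis are defined here by a rule on their RNA. They carry RNA of the interstitial stroma or of the muscle-like layer around the tubules together with RNA of the cell cycle. Cells with signal of germ, Sertoli or T cells beyond a set limit were left out. A cell was taken as a member when at least 3 of the 5 division genes UBE2C, TOP2A, CENPF, NUSAP1 and PCLAF had a unique molecular identifier (UMI, the tag that marks each captured RNA molecule) and at least 2 of 7 gate genes did. The gate genes are the stromal genes TCF21, PDGFRA, DCN and LUM and the myoid genes ACTA2, MYH11 and TAGLN. A cell was dropped when at least 2 genes of any 1 of 3 sets had a UMI, namely the germ cell genes DDX4, DAZL, MAEL and TDRD1, the Sertoli genes FSHR, AMH and CLDN11, and the T cell genes CD3E, CD3D and CD2. The members were therefore chosen by measured values, and these 22 genes are described below without a test. The rule found 131 cells among the 18504 cattle barcodes at the cell minimum, out of 27961 such barcodes in the whole series. Cattle 1 held 18 of them, cattle 2 held 73 and cattle 3 held 40.

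The libraries came from the testes of Holstein cattle aged 4.5 months, taken by castration, with 1 droplet library of total testicular cells from each of 3 animals. No treatment and no sort for a cell type is named in the labels, and the study also made libraries of mixed breed pigs aged 3 months, which enter no comparison here. The labels write the same testis number on 2 of the cattle libraries beside different animal tags, and each library was counted as 1 animal. The files hold 5805223, 27409347 and 53325608 UMIs in cattle 1, 2 and 3, and the cell minimum was 460, 972 and 2644 UMIs.

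Interstitial stromal cells fill the space between the seminiferous tubules and make its collagen-rich matrix, and peritubular myoid cells wrap the tubules in a contractile sheet. Before puberty the somatic compartment of the testis still grows, and a cell that divides passes through DNA replication, chromosome condensation, spindle assembly and cytokinesis, each with its own set of proteins. Cyclins and their kinases drive these steps, checkpoint proteins hold the cell until every chromosome is attached, and the anaphase-promoting complex (APC/C) ends mitosis by marking cyclins and securin for destruction.

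The comparison group was built by the same gate and the same exclusions. It held the 1373, 4217 and 3447 cells of cattle 1, 2 and 3 in which none of the 5 division genes had a UMI, called non-dividing below. A further 54, 138 and 193 gated cells had 1 or 2 division genes and belonged to neither group. Dividing cells were deeper than non-dividing cells in each library, with a median of 1347 against 756 UMIs in cattle 1, 2784 against 1633 in cattle 2 and 9346 against 4412 in cattle 3. Summed over cells, the dividing group held 31536, 216308 and 367728 UMIs. A single UMI was thus worth 31.7 CPM (counts per 1000000 UMIs of a sum) in the dividing sum of cattle 1, 4.62 CPM in that of cattle 2 and 2.72 CPM in that of cattle 3, so that the values of cattle 1 are the coarsest.

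The gate genes chose the members, so their levels describe the cells and do not test the label. Both groups had to show at least 2 gate genes, and dividing cells were deeper. The rule can therefore by itself favour a higher CPM of gate genes in the shallower non-dividing cells. The size of this was not tested. DCN, the collagen-binding proteoglycan decorin, stood at 1395, 3689 and 2823 CPM in the dividing cells of cattle 1, 2 and 3 and at 2454, 5048 and 3325 CPM in the non-dividing cells. In T cells, which should lack it, DCN stood at 657, 793 and 523 CPM, and in empty droplets at 628, 1442 and 1498 CPM. The T cells were the 42, 351 and 681 barcodes with at least 2 T cell genes, no division gene and fewer than 2 germ cell or Sertoli genes, and the empty droplets were the barcodes with at most 50 UMIs. DCN in dividing cells was thus above the levels of T cells and of free RNA in every library. TCF21, a transcription factor of stromal progenitors, stood at 666, 495 and 514 CPM in dividing cells against 156, 116 and 122 CPM in T cells. PDGFRA, the receptor for PDGF-A, stood at 127, 402 and 468 CPM against 62.5, 120 and 83.0 CPM. Both stromal genes exceeded the T cell level in each animal, although PDGFRA rested on 4 UMIs in cattle 1. LUM, the proteoglycan lumican, stood at 63.4, 60.1 and 267 CPM in dividing cells, on 2, 13 and 98 UMIs, against 31.3, 22.6 and 28.4 CPM in T cells. It was below the 85.7 and 61.5 CPM of empty droplets in cattle 1 and 2 and above their 112 CPM in cattle 3.

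The smooth muscle genes differed among themselves. ACTA2, smooth muscle actin, stood at 1807, 1392 and 2741 CPM in dividing cells, against 4572, 3231 and 4238 CPM in non-dividing cells and 657, 302 and 470 CPM in T cells. Empty droplets held 782, 808 and 1646 CPM of ACTA2, so that dividing cells were above both levels in each library. TAGLN, the actin-binding protein transgelin, stood at 222, 83.2 and 231 CPM in dividing cells, against 1579, 1074 and 1311 CPM in non-dividing cells. T cells held 156, 109 and 119 CPM of TAGLN and empty droplets 292, 294 and 461 CPM, so that TAGLN of dividing cells was below the level of empty droplets in all 3 libraries and below that of T cells in cattle 2. MYH11, the smooth muscle myosin heavy chain, had 0, 7 and 27 UMIs in dividing cells. The 0 of cattle 1 allows up to 95.1 CPM at 3 UMIs, above the 80.1 CPM of its non-dividing cells, so that no difference was detectable there. The other libraries gave 32.4 and 73.4 CPM in dividing and 133 and 117 CPM in non-dividing cells, with 23.1 and 59.0 CPM in empty droplets.

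**Figure D1:**
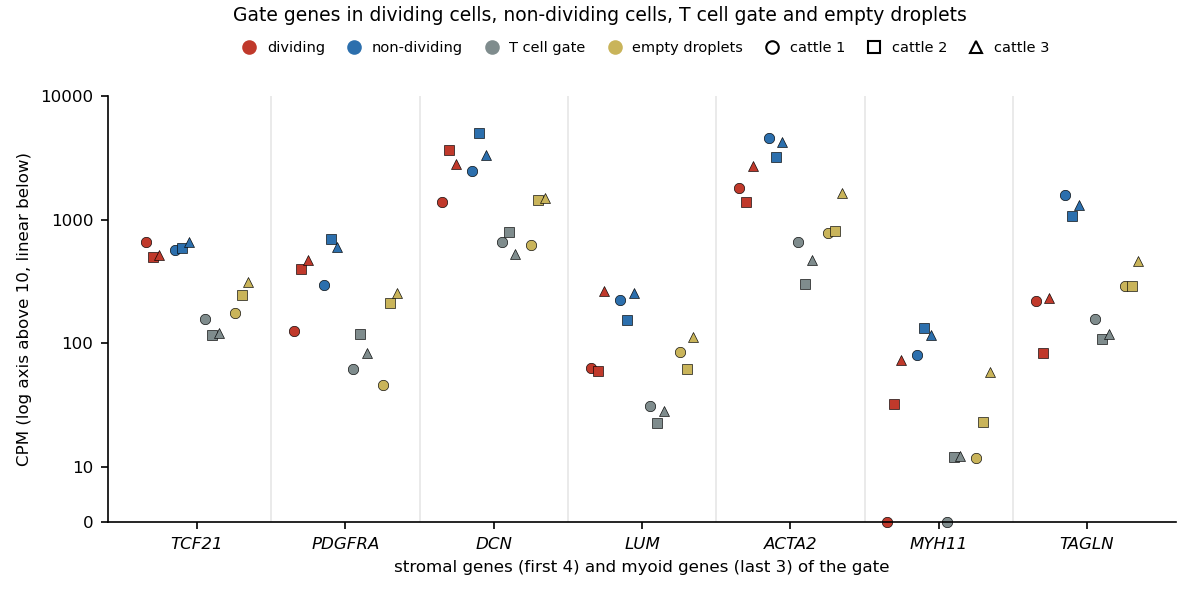
CPM (log axis above 10, linear below) of the 7 gate genes in dividing cells, non-dividing cells, T cells and empty droplets, with 1 point per cattle library. DCN, TCF21 and PDGFRA of dividing cells lie above the T cell points of the same animal, whereas TAGLN of dividing cells lies below the empty droplets in every animal.

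By the pattern of gate genes, 11, 67 and 38 members of cattle 1, 2 and 3 had at least 2 stromal genes, and only 1, 0 and 1 had at least 2 myoid genes with at most 1 stromal gene. At least 2 genes of both kinds were found in 3, 16 and 30 members, or 16.7%, 21.9% and 75.0%. Among non-dividing cells, 399, 256 and 109 had that myoid pattern, or 29.1%, 6.07% and 3.16%. The group is therefore called dividing stromal and myoid cells after its rule, and all but 15 of its members had at least 2 stromal genes. Of genes that the rule did not use, the matrix list summed to 9545, 15261 and 19901 CPM in dividing cells and to 4815, 4556 and 4112 CPM in T cells, and the contractile list to 5835, 5340 and 7465 CPM against 3971, 2718 and 2770 CPM. Both sums were higher in dividing cells than in T cells in each library. A test of the myoid side alone could not be run on 1, 0 and 1 cells.

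Cattle 1 stood apart in several measures. Its 18 dividing cells had a median of 6 UMIs over the 7 gate genes, against 18 in cattle 2 and 61.5 in cattle 3, and 3 of the 18 had only 2 such UMIs. The 9 lymphocyte markers summed to 1332 CPM in the dividing cells of cattle 1, with CCL5, a chemokine of T and NK cells, as their most abundant gene, and to 458 and 228 CPM in cattle 2 and 3. The non-dividing cells of the 3 animals held 491, 419 and 405 CPM, and T cells 16633, 17036 and 14443 CPM. LCK, the T cell kinase, stood at 190, 13.9 and 8.16 CPM in dividing cells. At least 3 lymphocyte markers were found in 3 of 18, 2 of 73 and 3 of 40 dividing cells (16.7%, 2.74% and 7.5%). Among non-dividing cells, 23 of 1373, 99 of 4217 and 153 of 3447 had as many (1.68%, 2.35% and 4.44%). Whether these members were lymphocytes was not tested. Each result below is therefore also given without cattle 1 where that changes it.

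T cells passed the gate as well. Of the barcodes with at least 2 T cell genes, 8 of 54, 61 of 381 and 285 of 744 passed the stromal and myoid gate, or 14.8%, 16% and 38.3%, at median depths of 710.5, 1433 and 3734 UMIs. In cattle 3 the T cells past the gate had a median of 3 gate UMIs against 61.5 in the dividing cells. In cattle 2 they had 12 against 18, over 55 T cells, and in cattle 1 they had 9 against 6, over 5 T cells. The part of free RNA and of doublets in this was not tested. No member shared its barcode with a cell of another cattle library, whereas 275 of the 18504 cattle barcodes did. Scrublet, which scores likely doublets, placed 7 of the 131 members among the high scores (0.8% of the barcodes of a library per 1000 barcodes in it), and they were kept.

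The exclusions removed more cells than they left in cattle 3. In cattle 1, 2 and 3, 25, 88 and 137 gated cells had at least 3 division genes, and 7, 15 and 97 of them were dropped, most for germ cell genes (7, 13 and 87). In the members, the 4 germ cell genes of the rule had 0, 5 and 5 UMIs in all. By the marker lists used below, 56 of 131 members had at least 2 Sertoli markers, against 3896 of 9037 non-dividing cells. At least 2 germ cell markers were found in 9 members and in 259 non-dividing cells. In cattle 3 these were 8 of 40 members (20%) and 225 of 3447 non-dividing cells (6.53%). The origin of this RNA was not tested.

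Among the members, 60 had all 5 division genes, 40 had 4 and 31 had exactly 3. UBE2C, the ubiquitin-conjugating enzyme of the APC/C, was detected in 18 of 18, 66 of 73 and 38 of 40 members. PCLAF, a partner of PCNA at replication forks, was detected in 8 of 18, 63 of 73 and 36 of 40. Summed, UBE2C stood at 2664, 1858 and 1199 CPM, CENPF, a kinetochore protein, at 1015, 1290 and 1003 CPM, TOP2A, which untangles DNA strands, at 381, 689 and 672 CPM, NUSAP1, a spindle protein, at 793, 1063 and 577 CPM and PCLAF at 444, 985 and 625 CPM. Cattle 1 was highest in UBE2C and lowest in TOP2A and PCLAF. Just inside the threshold, the 7, 17 and 7 members with exactly 3 division genes held 3101, 810 and 183 CPM of UBE2C, and just outside it the 16, 32 and 15 gated cells with 2 division genes held 535, 191 and 86.3 CPM. TOP2A stood at 111, 285 and 102 CPM inside and at 107, 42.4 and 10.8 CPM outside.

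Replication and mitotic RNA were set side by side in each cell by summing the UMIs of 29 replication genes and of 64 mitotic genes, which cover cyclins and kinases, kinetochore, spindle and APC/C genes without STMN1, TUBA1B, TUBB4B and the 5 genes of the rule. The mitotic UMIs exceeded the replication UMIs in 18 of 18, 61 of 73 and 30 of 40 members. The replication UMIs were the more numerous in 0, 10 and 10 members, and both were equal in 2 members of cattle 2. The replication list summed to 2632, 4600 and 4677 CPM in dividing and to 409, 455 and 414 CPM in non-dividing cells. The mitotic list summed to 11479, 13291 and 10954 CPM in dividing and to 546, 456 and 431 CPM in non-dividing cells. Every member had at least 5 mitotic UMIs and all but 1 had a replication UMI. The lists differ in number of genes and share co-expression with the 5 genes of the rule, so the split is a description and no phase was called.

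**Figure D2:**
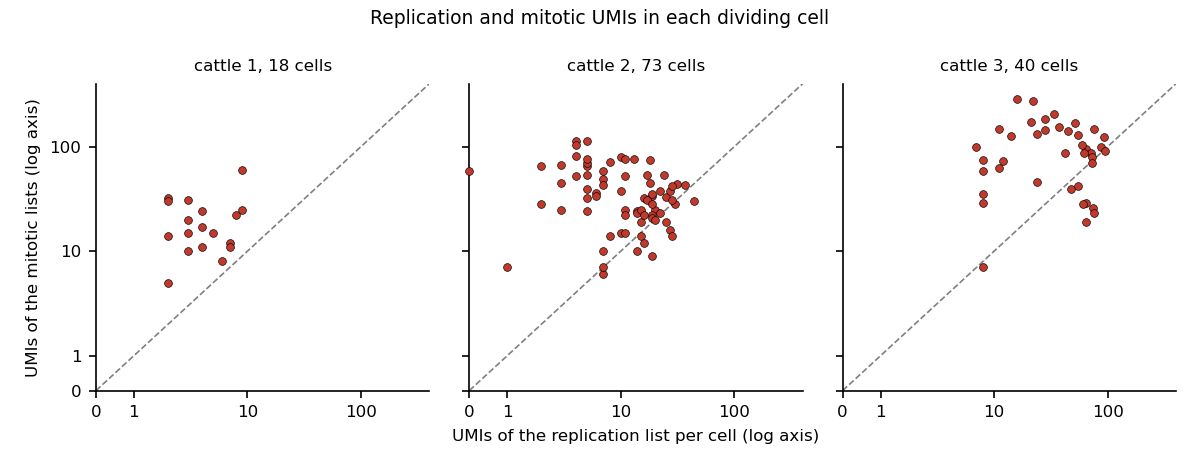
UMIs of the 29 replication genes (x axis) and of the 64 mitotic genes (y axis) in each dividing cell of cattle 1, 2 and 3, both on log axes with 0 shown. The dashed line marks equal UMIs, and 0, 10 and 10 cells of the 3 animals lie below it.

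Dividing cells were rare in the stromal and myoid compartment. They made up 1.25% of the gated cells of cattle 1 (95% exact binomial interval 0.740 to 1.96), 1.65% in cattle 2 (1.29 to 2.07) and 1.09% in cattle 3 (0.778 to 1.48), a mean of 1.33% ± 0.290 (SD, n = 3). These intervals cover counting error only. Since a deeper cell has more chances to show 3 division genes, each cell was also thinned to 1000 UMIs before the rule was applied, which left out 2389, 222 and 0 shallower cells. The share was then 2.88% (1.25 to 5.59), 0.939% (0.665 to 1.29) and 0.415% (0.221 to 0.708) in cattle 1, 2 and 3, against 4.13%, 1.69% and 1.09% of the same cells before thinning. The order of the animals differed between these scales, so no order is drawn from the shares.

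Dividing and non-dividing cells were compared over the 3 animals on UMI counts summed per library, with the quasi-likelihood test of edgeR and p-values adjusted after Benjamini and Hochberg, without the 22 genes of the rule. Of 12082 genes tested, 280 (2.32%) were higher and 49 (0.406%) lower in dividing cells at an adjusted p under 0.05. This test leaves the pairing of the dividing and non-dividing sums of an animal out of account. With the animal as a block, which takes it into account, 528 (4.37%) were higher and 515 (4.26%) lower. Without cattle 1, the counts were 367 and 143, without cattle 2 they were 194 and 30, and without cattle 3 they were 186 and 54. List counts without cattle 1 below belong beside its 367 and 143 genes, and not beside the shares of the other runs. The median log2 fold change over all genes was -0.32, and it was -0.06 with library sizes in place of TMM factors and 0.01 with DESeq2. Fold changes are therefore read beside this shift. Of the 280 higher genes, 94 were in the lists of division genes, 4 in the list of G1 genes and 182 outside all lists, and 212 had all 3 dividing sums above all 3 non-dividing sums. Over all genes tested, 7.31% had the 3 dividing sums above and 18.0% had them below.

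**Figure D3:**
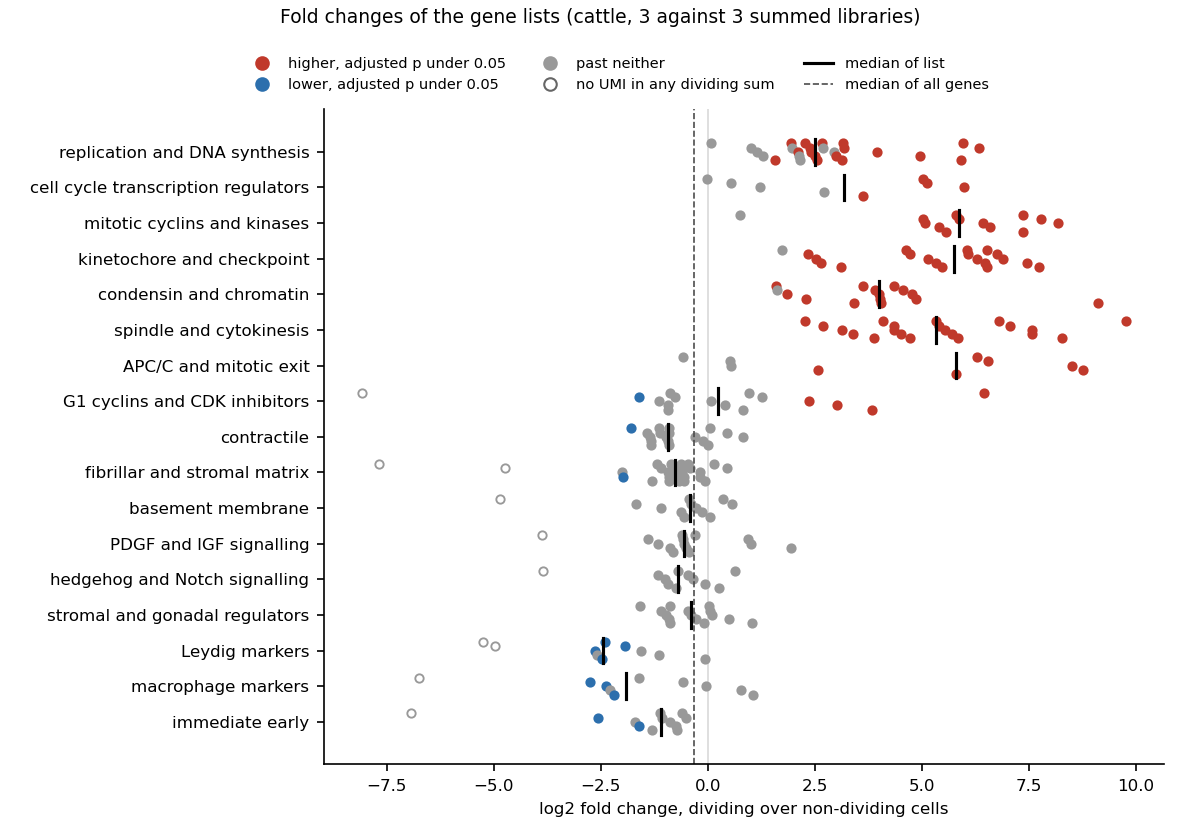
log2 fold change (x axis) of every tested gene of 17 gene lists (y axis), dividing over non-dividing cells, from summed libraries of 3 cattle. Red and blue points passed an adjusted p of 0.05, open points had no UMI in any dividing sum, black bars are list medians and the dashed line is the median of all genes at -0.32. The 7 division lists lie to the right, and every other list shown except the G1 list has its median to the left of the dashed line.

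Across the 7 division lists, 94 of 113 tested genes were higher in dividing cells and 0 were lower, against 2.32% and 0.406% of all genes, and the median log2 fold change was 4.35. With the block, 101 were higher, and without cattle 1, 99 were. Cells were chosen by genes of the same program, so these calls describe the members and are no independent evidence that the cells divide.

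In the replication list, 18 of 27 tested genes were higher and 0 lower, with a median log2 fold change of 2.51, and 23 were higher with the block. PCNA, the sliding clamp of DNA polymerase, stood at 349, 966 and 952 CPM in the dividing cells of cattle 1, 2 and 3 and at 63.3, 96.6 and 83.4 CPM in non-dividing cells (log2 fold change 2.99 ± 0.43 SE, adjusted p = 0.000467). The groups did not overlap, and cattle 1 was the lowest of the dividing sums. DUT, which keeps uracil out of DNA, stood at 1110, 1660 and 1708 CPM against 73.4, 95.4 and 64.3 CPM (3.96 ± 0.39, adjusted p = 6.09e-06). UHRF1, which carries DNA methylation through replication, stood at 159, 213 and 207 CPM against 3.37, 2.76 and 2.26 CPM (5.95 ± 0.41, adjusted p = 1.94e-07). RRM2, the small subunit of ribonucleotide reductase, stood at 63.4, 227 and 239 CPM against 0, 2.37 and 2.26 CPM, again without overlap. Of the helicase subunits, MCM3 and MCM5 were higher by 1.94 and 2.26 on the log2 scale, MCM3 with 0 UMIs in cattle 1 and values of 1.67 (adjusted p = 0.445) without cattle 2, 1.63 (0.442) without cattle 3 and 1.46 (0.174) with matched UMI totals, whereas MCM2 (1.29), MCM6 (0.07) and MCM7 (1.14) did not pass the test. MCM2 and MCM7 passed it with the block (adjusted p = 0.000483 and 0.000131) and without cattle 1 (0.0213 and 0.0208).

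Among regulators of cell cycle transcription, 4 of 8 tested genes were higher and 0 lower, with a median log2 fold change of 3.17. MYBL2, the B-Myb factor of mitotic genes, stood at 95.1, 97.1 and 62.5 CPM against 0.844, 2.1 and 2.20 CPM, with a log2 fold change of 5.02 ± 0.45. LIN9, a subunit of the same MuvB complex, and the repressors E2F7 and E2F8 were higher by 3.63, 5.12 and 5.98, all 3 with 0 UMIs in the dividing sum of cattle 1. Without cattle 2, LIN9 gave 3.70 (adjusted p = 0.192) and E2F7 4.42 (0.0578). The MuvB subunits LIN37 (-0.02) and LIN54 (1.21) and the E2F partner TFDP1 (0.54) did not pass the test, and their groups overlapped.

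The mitotic lists held the largest medians. Of 13 mitotic cyclins and kinases, 12 were higher and 0 lower (median 5.86), CKS1B being the exception at 0.75. CKS2, a small subunit of cyclin-dependent kinases, stood at 888, 1442 and 933 CPM against 21.1, 20.2 and 14.6 CPM (5.55 ± 0.41, adjusted p = 2.95e-07). BIRC5, the survivin subunit of the chromosomal passenger complex, stood at 507, 411 and 272 CPM against 5.9, 3.15 and 2.81 CPM. CCNB2, a B-type cyclin, stood at 412, 319 and 212 CPM against 1.69, 0.920 and 0.976 CPM. The mitotic kinase PBK stood at 222, 319 and 253 CPM against 5.06, 3.68 and 3.35 CPM. All 4 genes had separate groups, and BIRC5 and CCNB2 were highest in cattle 1. CDK1, PLK1 and AURKB, kinases that drive entry into and passage through mitosis, were higher by 5.02, 5.06 and 6.60 on the log2 scale.

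Of 20 kinetochore and checkpoint genes, 19 were higher and 0 lower (median 5.75), and ZWINT (1.73) was the exception, with an adjusted p of 0.128 and of 6.37e-09 with the block and 0.0193 without cattle 1. SPC24, of the NDC80 complex that binds microtubules, stood at 888, 943 and 772 CPM against 10.1, 7.62 and 5.49 CPM, and its partner NUF2 at 254, 264 and 345 CPM against 4.22, 5.78 and 6.71 CPM. CENPW, of the inner centromere, stood at 254, 370 and 307 CPM against 3.37, 3.42 and 2.20 CPM. MAD2L1, which signals unattached chromosomes, stood at 285, 296 and 220 CPM against 11, 7.62 and 6.59 CPM. Within each of these genes the 3 dividing sums lay close together and far above the non-dividing sums.

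In the condensin and chromatin list, 14 of 15 tested genes were higher and 0 lower (median 4.0). HMGB1, an abundant DNA-bending protein, stood at 2410, 3962 and 3815 CPM against 606, 880 and 778 CPM (1.86 ± 0.35, adjusted p = 0.00573). Its relative HMGB2 stood at 2537, 3421 and 2396 CPM against 111, 147 and 143 CPM (4.02 ± 0.35). H2AFZ, the histone variant H2A.Z, stood at 2156, 2839 and 2227 CPM against 121, 148 and 110 CPM, and the nucleosome-binding HMGN2 at 3044, 3472 and 3051 CPM against 434, 559 and 527 CPM. The condensin subunits SMC2, SMC4, NCAPG and NCAPH were higher by 4.35, 4.0, 4.57 and 4.85 (NCAPH 3.25 without cattle 3, adjusted p = 0.414), and NCAPD3 of the other condensin (1.62) did not pass the test.

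All 21 tested spindle and cytokinesis genes were higher (median 5.32). TUBA1B, an alpha tubulin, stood at 8403, 8035 and 7334 CPM against 1312, 826 and 719 CPM (2.69 ± 0.32, adjusted p = 4.9e-05). TUBB4B, a beta tubulin, stood at 2664, 1748 and 1901 CPM against 215, 139 and 192 CPM. STMN1, which destabilises microtubules, stood at 2790, 4124 and 3092 CPM against 561, 565 and 521 CPM. TPX2, a spindle assembly factor, stood at 190, 689 and 658 CPM against 26.1, 47.7 and 52.8 CPM. ASPM at the spindle poles, KIF20A in cytokinesis and PRC1 at the midzone were higher by 9.76, 8.27 and 7.57.

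Of 9 APC/C and mitotic exit genes, 6 were higher and 0 lower (median 5.79). CDC20, the mitotic activator of the APC/C, stood at 507, 444 and 275 CPM against 0, 0.920 and 0.610 CPM. CDCA3 stood at 1078, 555 and 397 CPM against 5.06, 0.920 and 0.793 CPM, and PTTG1, the securin that the complex marks for destruction, at 761, 971 and 634 CPM against 10.1, 6.44 and 5.0 CPM. UBE2S, which extends ubiquitin chains, stood at 1015, 569 and 476 CPM against 115, 69.9 and 68.9 CPM. The core subunits ANAPC11 (0.53) and CDC26 (-0.58) and the late activator FZR1 (0.52) did not pass the test.

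G1 cyclins and inhibitors of cyclin-dependent kinases divided. Of 16 tested genes, 4 were higher and 1 was lower, with a median log2 fold change of 0.23, beside 2.32% higher and 0.406% lower of all genes. With the block 5 were higher and 2 lower, beside 4.37% and 4.26% of all genes. The inhibitor CDKN2C (p18) stood at 349, 384 and 310 CPM in dividing and at 27.0, 21.0 and 12.1 CPM in non-dividing cells (3.84 ± 0.38, adjusted p = 7.45e-06). CDKN2D (p19) stood at 95.1, 83.2 and 62.5 CPM against 9.28, 6.31 and 7.87 CPM (3.01 ± 0.39, adjusted p = 0.000135), and CDKN2A at 31.7, 27.7 and 21.8 CPM against 0, 0.394 and 0.122 CPM (6.45 ± 0.81, adjusted p = 0.000107). These 3 inhibitors of the same family were higher without overlap, although CDKN2A rested on 1 UMI in cattle 1. CDK2, the kinase of S phase entry, was higher by 2.35 ± 0.50, with an adjusted p of 0.0131. It gave 2.49 (0.088) without cattle 2, 2.44 (0.188) without cattle 3 and 2.34 (0.0506) with matched UMI totals. CCND2, cyclin D2, was lower in the test at 127, 55.5 and 38.1 CPM against 133, 160 and 114 CPM (-1.62 ± 0.39, adjusted p = 0.0321), with overlapping groups because cattle 1 differed little. Without cattle 2 it gave -1.44 (adjusted p = 0.537), without cattle 3 -1.39 (0.384) and against non-dividing cells of matched UMI totals -1.29 (0.141). It also gave -1.33 (0.0994) with library sizes and -1.38 (0.0968) without cells with markers of other types, and its adjusted p was 0.0647 with cells of at least 1000 UMIs. CDK4, its kinase partner, stood at 349, 370 and 218 CPM against 143, 136 and 127 CPM, which did not pass the test (0.82 ± 0.31, adjusted p = 0.243) and did so with the block (0.0129). CDKN1A (p21) and CDKN1B (p27) gave -0.92 and 0.40 and passed no test.

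Of the contractile genes beyond the 3 of the rule, only TPM2 passed the test. Of 18 tested rows of 17 genes, 0 were higher and 1 lower, beside 0.406% lower of all genes, with a median log2 fold change of -0.93 beside -0.32 for all genes. With the block 10 were lower, beside 4.26% of all genes. Without cattle 1, a run that called more lower genes over all genes than the main test, the count was 1, for a gene other than TPM2. TPM2, the beta tropomyosin of muscle filaments, stood at 190, 314 and 655 CPM against 1445, 888 and 1291 CPM (-1.80 ± 0.44, adjusted p = 0.036). The groups did not overlap, but TPM2 gave -1.35 (0.0789) without cattle 1, -1.39 (0.0552) with matched UMI totals and -1.33 (0.0512) with cells of at least 2 stromal genes so matched. Without cattle 3 it gave -2.52 (3.72e-06). MYL6, a myosin light chain of many cell types, stood at 1776, 1872 and 2494 CPM against 3449, 3036 and 2679 CPM (-0.90, adjusted p = 0.199, with the block 0.000723). CALD1, caldesmon, stood at 571, 680 and 500 CPM against 795, 994 and 780 CPM (-0.90, 0.183, with the block 0.00318). MYL9, the regulatory light chain of smooth muscle, is listed under 2 identifiers. One of them, ENSBTAG00000011473, stood at 793, 222 and 479 CPM against 1188, 646 and 865 CPM (-1.33, 0.0929, with the block 1.16e-06), and the other, ENSBTAG00000016024, gave 0.04, so that the gene as a whole is uncertain. Summed over the 17 genes, contractile RNA stood at 5835, 5340 and 7465 CPM in dividing and at 10051, 8454 and 9512 CPM in non-dividing cells, against 4253, 4384 and 5260 CPM in empty droplets. The sums of dividing cells lay between those of empty droplets and of non-dividing cells in each animal, and the part of free RNA in the difference was not tested.

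Few matrix genes passed the test. Of 27 tested genes, 0 were higher and 1 lower, beside 0.406% lower of all genes (median -0.77, or -0.62 with the 2 genes that had no UMI in dividing cells set at the limit of 3 UMIs). With the block 9 were lower, beside 4.26% of all genes. Without cattle 1, 3 were lower, in a run that also called more lower genes over all genes than the main test. MGP, matrix Gla protein, stood at 3710, 8321 and 11068 CPM in dividing and at 8826, 14599 and 12793 CPM in non-dividing cells (-0.92, adjusted p = 0.359, with the block 4.07e-06). SPARC, a collagen-binding glycoprotein, stood at 1364, 966 and 1381 CPM against 1138, 1396 and 1325 CPM, and the collagen COL1A2 at 698, 1174 and 1542 CPM against 1372, 1494 and 1475 CPM. The groups overlapped for all 3 genes. TIMP2, an inhibitor of matrix metalloproteinases, was lower at 1015, 416 and 503 CPM against 2713, 1003 and 1825 CPM (-1.99 ± 0.38, adjusted p = 0.00576). It was lower within each animal, and it passed the test without cattle 1 (0.00798), but not without the cells that had at least 3 markers of another cell type (-1.26, 0.149). OGN, the proteoglycan osteoglycin, stood at 95.1, 485 and 538 CPM against 481, 1976 and 1609 CPM (-2.01 ± 0.56, adjusted p = 0.0778, 0.00123 without cattle 1, 0.0239 without cattle 2 and 4.22e-05 without cattle 3). Summed over the list, matrix RNA stood at 9545, 15261 and 19901 CPM in dividing, 19948, 26052 and 24040 CPM in non-dividing cells and 14074, 12401 and 12854 CPM in empty droplets. The dividing sum of cattle 1 lay below its empty droplets and those of cattle 2 and 3 above, and the part of free RNA in the difference was not tested.

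Basement membrane genes gave 0 calls among 12 tested rows (median -0.42, with 1 lower with the block beside 4.26% of all genes). COL15A1 stood at 159, 536 and 500 CPM against 217, 527 and 417 CPM, with a log2 fold change of -0.14, and COL4A1 and LAMB1 gave -0.39 and -0.62. COL18A1 stood at 190, 199 and 185 CPM against 381, 329 and 276 CPM (-1.09, adjusted p = 0.099, with the block 0.00321).

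**Figure D4:**
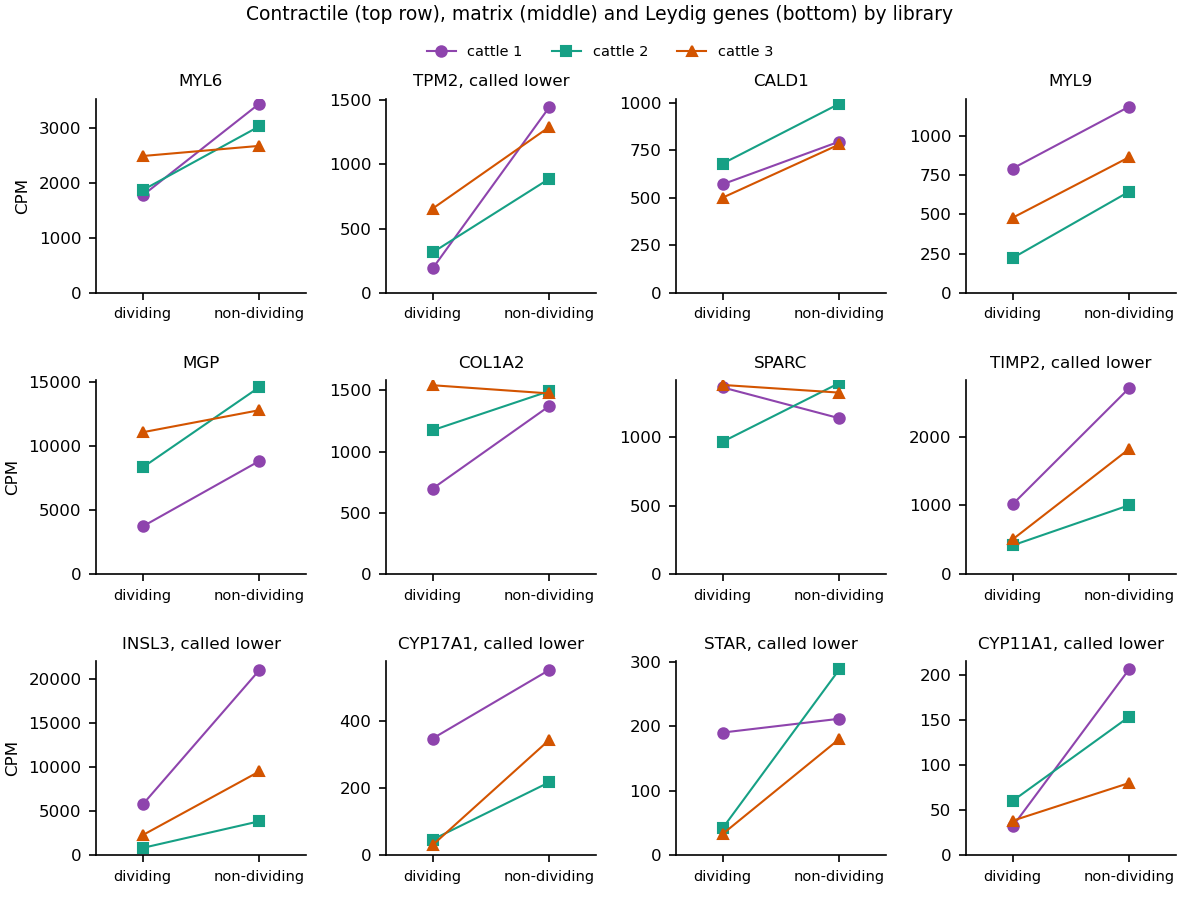
CPM of the 4 named contractile genes (top row), matrix genes (middle row) and Leydig genes (bottom row) in dividing and non-dividing cells, with 1 line per animal and axes from 0. TPM2, TIMP2 and the 4 Leydig genes were lower at an adjusted p under 0.05, and SPARC and COL1A2 overlap between groups. MYL9 is the row ENSBTAG00000011473.

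Growth factor genes showed 0 calls among 14 tested rows of PDGF and IGF signalling (median -0.57, with 2 lower with the block beside 4.26% of all genes). IGFBP6, which binds IGF2, stood at 2315, 1965 and 1594 CPM against 4029, 3662 and 2323 CPM, without overlap (-1.17 ± 0.30, adjusted p = 0.0505, with the block 1.19e-05). IGF2 stood at 888, 999 and 1686 CPM against 1295, 1325 and 2533 CPM (-0.80, 0.408, with the block 0.00349). IGFBP7 and IGFBP4 gave -0.51 and -0.56 and overlapped. Hedgehog and Notch signalling, through which Sertoli and Leydig lineages instruct the interstitium, gave 0 calls among 11 genes (median -0.69). The Notch target HEYL stood at 95.1, 87.8 and 73.4 CPM against 96.2, 120 and 108 CPM. SMO and JAG1 gave -0.48 and -1.17. Of 15 rows of stromal and gonadal regulators 0 were called (median -0.39, with 1 lower with the block, again beside 4.26%). NR2F2 (COUP-TFII), a nuclear receptor of interstitial cells, stood at 190, 361 and 329 CPM against 245, 376 and 425 CPM, and GATA4, a gonadal factor, at 31.7, 27.7 and 32.6 CPM against 43.0, 46.4 and 55.6 CPM. THY1 and EMX2 gave -0.27 and -0.39. A p that missed the threshold does not show that these genes were alike in the groups.

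Markers of other cell types were counted in the same way. Of 10 Leydig markers, 4 were lower and 0 higher (median -2.44, or -1.75 with 2 undetected genes at the limit of 3 UMIs), 5 were lower with the block and 3 without cattle 1. INSL3, the peptide hormone of Leydig cells, stood at 5739, 804 and 2257 CPM against 21009, 3835 and 9498 CPM (-2.47 ± 0.57, adjusted p = 0.0261). The share of all genes that were lower was 0.406%, and 4.26% with the block, and without cattle 1 more genes were lower than in the main test. CYP17A1, STAR and CYP11A1, of steroid synthesis, were lower by 2.62, 2.41 and 1.92 on the log2 scale, although the groups of INSL3, CYP17A1 and STAR overlapped between animals, and their dividing sums were highest in cattle 1. CYP11A1 gave -1.54 (adjusted p = 0.066) without cattle 1 and -2.22 (0.0557) without cattle 2, and STAR -1.87 (0.184) without cattle 2. With library sizes INSL3 gave -2.0 (0.0992), CYP17A1 -2.30 (0.0944) and CYP11A1 -1.66 (0.0565), and with DESeq2 CYP17A1 gave -2.12 (0.11). Empty droplets held 114499, 26954 and 18222 CPM of Leydig markers, more than any group of cells compared here. Dividing cells held 6310, 999 and 2409 CPM, non-dividing cells 22070, 4587 and 10207 CPM and T cells 5284, 2065 and 2681 CPM. Without the cells that carried at least 3 markers of Leydig cells, macrophages, endothelium or lymphocytes, 0 of 9 Leydig markers were called, although INSL3, CYP17A1 and CYP11A1 still gave -2.09, -2.23 and -1.97 (adjusted p = 0.114, 0.29 and 0.105), and STAR gave -0.92 (0.612). That filter used the Leydig markers themselves, and it left out 34 of 131 dividing and 2329 of 9037 non-dividing cells. The part of free RNA and of Leydig cells in the difference was not tested.

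Of 10 macrophage markers, 3 were lower and 0 higher, beside 0.406% lower of all genes (median -1.91, or -1.10 with 1 undetected gene at the limit). The complement genes C1QA, C1QB and C1QC were lower by 2.38, 2.20 and 2.75, C1QA standing at 63.4, 55.5 and 70.7 CPM against 170, 217 and 442 CPM. C1QB stood at 159, 32.4 and 35.4 CPM against 118, 131 and 275 CPM, so that it was higher in the dividing cells of cattle 1 and the groups overlapped, and it gave -1.93 (adjusted p = 0.068) with library sizes. By contrast CTSS, a protease, gave -0.58. No macrophage marker was called against non-dividing cells matched on UMI total (0 of 7), and the median there was 0.07, but C1QA and C1QC still gave -1.32 and -1.43 (adjusted p = 0.0587 and 0.0616) and C1QB -0.65 (0.667). Without the cells with at least 3 markers of other types, C1QA, C1QB and C1QC gave -1.47, -0.90 and -1.71 (0.223, 0.63 and 0.205). Without cattle 3, C1QB gave -1.40 (0.444) and C1QC -1.84 (0.0897), and without cattle 2, C1QB gave -2.0 (0.108). Macrophage markers summed to 507, 365 and 699 CPM in dividing, 689, 856 and 1707 CPM in non-dividing cells and 4285, 1988 and 2544 CPM in empty droplets, and their part in the difference was not tested. The 6 Sertoli markers gave 0 calls and 4 lower with the block, beside 4.26% of all genes (median -1.29). CLU, clusterin, stood at 2125, 1133 and 639 CPM against 1701, 1746 and 1463 CPM, and INHA, the inhibin alpha subunit, at 571, 240 and 73.4 CPM against 657, 399 and 312 CPM. BEX2 (ENSBTAG00000036028, 1 of 2 identifiers) and AARD gave -1.30 and -1.28. Pericyte, endothelial, lymphocyte and germ cell markers gave 0 calls among 5, 7, 9 and 5 genes (medians -1.73, -0.13, -0.07 and -0.33). With 2, 2 and 1 undetected genes at the limit of 3 UMIs, the first 3 medians were -0.23, 0.68 and 0.10. No direction is therefore drawn from these 3 medians. With the block 1 of the genes, the pericyte gene HIGD1B, was lower. In the dividing cells of cattle 1, 2 and 3 the 8 endothelial markers summed to 0, 4.62 and 38.1 CPM, the 6 pericyte markers to 0, 60.1 and 32.6 CPM and the 9 germ cell markers to 63.4, 111 and 131 CPM. The 4 listed erythroid markers had 0 UMIs in all dividing sums. UCHL1 was the most abundant germ cell marker in each animal, and VWF and MCAM, defining markers of endothelium and pericytes, had 0 UMIs in each dividing sum, as had the T cell gene CD3G. The limit of 3 UMIs over the dividing sums is 4.87 CPM, and the pooled non-dividing sums held 3.06 CPM of VWF, 5.72 CPM of MCAM and 1.27 CPM of CD3G, so that these zeros do not show absence.

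Immediate early genes, which respond within minutes to stimuli and to tissue digestion, were lower for 2 of 12 tested genes and higher for 0, beside 0.406% lower of all genes and 4.26% with the block (median -1.09, or -0.97 with 1 undetected gene at the limit, 6 lower with the block). IER3 and NR4A1 were lower by 1.62 and 2.56 on the log2 scale, and both lost the call in several alternatives. IER3 gave -1.62 (adjusted p = 0.377) without cattle 2, -1.98 (0.109) without cattle 3, -1.39 (0.0765) with matched UMI totals and -1.41 (0.0769) with cells of at least 1000 UMIs. NR4A1 gave -2.36 (0.0596), -2.73 (0.334) and -2.85 (0.434) without cattle 1, 2 and 3, -2.40 (0.129) with DESeq2, -2.33 (0.0773) with library sizes and -2.58 (0.0658) with matched UMI totals. JUNB stood at 317, 351 and 264 CPM against 612, 474 and 521 CPM (-1.12, adjusted p = 0.0731), EGR1 at 63.4, 60.1 and 70.7 CPM against 158, 117 and 135 CPM (-1.31, 0.0606, 0.0427 without cattle 1), and the groups did not overlap for either. FOS and JUN gave -0.73 and -0.50 and overlapped.

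Outside the lists, 9 of the 10 higher genes with the largest changes are given here, and several have known roles in division. ESCO2, which acetylates cohesin in S phase, stood at 63.4, 166 and 125 CPM against 0, 0.526 and 0.915 CPM (7.21 ± 0.53, adjusted p = 3.18e-07). MXD3, a partner of MAX, stood at 254, 254 and 209 CPM against 2.53, 1.58 and 0.854 CPM (7.15 ± 0.46). CKAP2, a spindle protein, stood at 95.1, 522 and 253 CPM against 0, 5.91 and 2.74 CPM, and the histone gene HIST1H2AG at 31.7, 231 and 193 CPM against 0, 1.71 and 2.38 CPM. Reads of histone genes can be shared between near-identical copies, so that HIST1H2AG is uncertain. MIS18A, which helps to load the centromeric histone, was higher by 4.43, TCF19 by 5.55, MND1, known from meiotic recombination, by 5.24, DIAPH3, an actin nucleator of cytokinesis, by 4.74 and GTSE1 by 4.30. The dividing sums of these 9 genes lay above all non-dividing sums, and their calls held in every alternative run.

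Of the 49 lower genes, 12 were in the lists and 37 outside them. The 10 of the latter that are named here were less firm. KRT18, an intermediate filament protein, stood at 31.7, 13.9 and 35.4 CPM against 215, 135 and 224 CPM (-3.07 ± 0.45, adjusted p = 0.000486). OTOS stood at 222, 176 and 193 CPM against 964, 469 and 1055 CPM (-2.41 ± 0.37, adjusted p = 0.000783), and PLPP3, a lipid phosphatase, at 31.7, 37.0 and 38.1 CPM against 104, 162 and 234 CPM (-2.43 ± 0.43, adjusted p = 0.00325). These 3 genes passed the test in every alternative run, with no overlap between groups. SGK1, NMB, ASB2, MVP, FASN and SUOX were lower by 3.72, 3.68, 2.96, 2.37, 2.36 and 2.35. Each lost the call when cattle 2 or cattle 3 was left out, and SGK1 moved to -8.19 (adjusted p = 0.269) without cattle 3. SGK1, FASN and SUOX also lost it with DESeq2 (0.142, 0.0636 and 0.0765) and with library sizes (0.0565, 0.0576 and 0.0628). ZFPM1, a cofactor of GATA factors, had 0 UMIs in each dividing sum and 10.1, 10.9 and 12.1 CPM in the non-dividing sums, which is at least 2.39-fold lower in pooled sums at the limit of 3 UMIs over the 3 dividing sums, and its adjusted p was 0.0499. It lost the call in 10 alternatives, with an adjusted p of 0.169 with DESeq2, 0.313 without cattle 2 and 0.48 without cattle 3.

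The comparison was repeated on cells of the stromal pattern alone, with at least 2 stromal genes and no myoid gene, which left 4, 14 and 5 dividing cells. Of 8610 genes, 105 (1.22%) were higher and 62 (0.72%) lower, with a median log2 fold change over all genes of -0.92, and 98 (1.14%) and 57 (0.662%) with the block. Without cattle 1 the counts were 116 and 80, without cattle 2 they were 25 and 8, without cattle 3 they were 58 and 11, and DESeq2 called 129 and 11. Of 90 tested genes of the division lists 56 were higher and 0 lower. Contractile genes gave 0 calls among 17 tested rows, and matrix genes 1 lower among 25, OGN, with 0, 10 and 3 UMIs in dividing cells. Of 8 Leydig markers 2 were lower, CYP17A1 and STAR, with 0, 1 and 0 and with 0, 1 and 5 UMIs in dividing cells. In addition 3 of 10 macrophage markers, 3 of 11 immediate early genes and 1 of 11 basement membrane genes, COL18A1, were lower, beside 0.72% of all genes, and CDKN2C was the 1 G1 gene that was higher. The sum of cattle 1 here rested on 4 cells with a TMM factor of 2.40.

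Ribosomal protein genes took 26.4%, 24.8% and 25.6% of the UMIs of dividing cells and 27.4%, 30.8% and 29.7% of those of non-dividing cells. The difference was -3.71 percentage points, lower in 3 of 3 animals, with p = 0.1 in a two-sided exact permutation test of 3 dividing against 3 non-dividing sums. This is the smallest p that the test can give, and it leaves the pairing of the sums by animal out of account. Against non-dividing cells of matched UMI totals it was -3.48 points, lower in 2 of 3 animals (exact p = 0.3). The 12 mitochondrial genes took 1.11%, 1.96% and 2.1% against 0.901%, 2.46% and 3.15%, a difference of -0.448 points, lower in 2 of 3 animals (exact p = 0.6). Against matched cells, which held 1.57%, 3.11% and 4.36%, the difference was -1.29 points, lower in 3 of 3 animals (exact p = 0.3).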

How the data were processed

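The authors digested testes, made 10x v2 libraries and, per the labels, used Cell Ranger 2.1.0 with ARS-UCD1.2 for cattle. The deposited values are raw UMI counts for 19994 genes and every barcode, without normalization. The study left out low-quality cells and doublets in each library, and its thresholds and the strand setting of the counting are not given in the sources used here.

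The cell minimum was the Cell Ranger 2 rule at 3000 expected cells. Members and gene lists were chosen with earlier results of these data known. Counts were summed per library and group. Genes with at least 10 counts entered the main test, the quasi-likelihood test of edgeR 4.0.16 (TMM factors, R 4.3.3), with Benjamini-Hochberg adjustment over all of them and a threshold of 0.05. DESeq2 1.42.0 was an alternative. Doublets were scored with scanpy 1.11.5. CPM are counts per 1000000 UMIs of a summed group. The p-values of the main test measure the spread among the 3 sums within each group. They leave the pairing of the sums by animal out of account. Intervals cover counting error only.

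The dividing and non-dividing sums of 1 animal share a library, so they are paired. Their deviations from the group means correlated by 0.285, 0.237 and 0.322 over 8262 genes. A replicate block for the animal was tried as an alternative.

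On simulated counts of the main comparison (11785 genes, 200 changed), edgeR recovered 38% of 4-fold and 2% of 2-fold changes, and 11.1% of its calls were false. For the stromal pattern alone (8326 genes, 200 changed) it recovered 3% of 4-fold and 0% of 2-fold changes. Lists without a call there are thus no sign of equal levels.

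The genes named are the 4 tested genes of each list with the highest mean CPM and, outside the lists, the 10 higher and 10 lower genes with the largest fold change. The latter have a symbol, at least 100 counts, a call and 1 direction in all 3 animals. Other genes were named after their values were seen, and some genes that the rule names are not reported here. The symbols MKI67, KNL1, MCM4, INCENP, TUBB, SOX9, PTCH1, ENG, CDH5, JUND and HSD3B1 were not matched in the gene table, and no sequences were used.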

Additional observations from a re-analysis of the deposited data

Results flagged for a closer look

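The pig libraries enter no comparison above, and the same gene rule found cells there too. Of the 22 genes of the rule, 20 are listed in the pig files under these symbols, MYH11 and DAZL being unmatched. Of 119, 1304 and 627 gated cells of pig 1, 2 and 3, 6, 84 and 187 passed the division part of the rule. The difference from the cattle was not tested, since species, age and the gene table differ together.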

How the results depend on the processing

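With the animal as a replicate block, 528 genes were higher and 515 lower in dividing cells, in place of 280 and 49. Lower counts were 74 with DESeq2, 27 with library sizes, 251 without the low-count filter, 80 with matched UMI totals, 75 without cells with any excluded gene, 139 with at least 2 stromal genes and 97 with these matched on UMI total, the last 2 chosen after seeing the data, as was leaving out cells with 3 markers of other types. Leaving out 1 animal gave 186 to 367 higher and 30 to 143 lower genes. The cause of these changes was not tested.

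On the stromal pattern alone, 158 genes were higher with library sizes in place of 105. Lower genes numbered 11 with DESeq2, 22 with library sizes, 27 with DESeq2 size factors, 28 with matched totals and 122 without high doublet scores, in place of 62. Leaving out 1 animal gave 25 to 116 higher and 8 to 80 lower genes, and the block changed no count there by over 1.5 times.

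The mean share of dividing cells was 2.07% with at least 2 and 0.974% with at least 4 division genes. Of 92 genes with a fold change that the naming rule chose, 56 were called and 39 of these kept the call in every alternative run. Among genes without a call whose fold change is given, the sign turned for MCM6 (-1.0 with at least 2 stromal genes, -0.28 without cells of other types, -0.23 without cattle 2, -0.0095 without cattle 3), CDKN1A (0.024 without cattle 3), MYL9 ENSBTAG00000016024 (-0.049 without cells of other types), LIN37 (DESeq2 0.15, library sizes 0.26, DESeq2 size factors 0.091, replicate block 0.022, -0.16 to 0.41 leaving out 1 animal, matched 0.10, without high doublet scores 0.014), COL15A1 (library sizes 0.16, matched 0.18, stromal matched 0.24), THY1 (-0.71 to 0.045 leaving out 1 animal, matched 0.017, stromal matched 0.15), EMX2 (matched 0.91, stromal matched 0.73) and CTSS (matched 0.069).

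The myoid pattern alone, and its difference from the stromal pattern, were not run, since dividing cells numbered 1, 0 and 1. Depth limits the values of cattle 1, where 3 UMIs are 95.1 CPM.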
